A study of Homo sapiens with 8 samples.

Results

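The clustered protocadherins are the genes PCDHA, PCDHB, PCDHGA, PCDHGB and PCDHGC, which lie side by side in 3 arrays on human chromosome 5. They were taken from the table of read counts by symbol, leaving out symbols that end in P, which gave 54 of 60606 genes: 16 alpha, 16 beta and 22 gamma genes. PCDHA14 is annotated as a transcribed unprocessed pseudogene, and the other 53 code for protein. The counts come from total RNA of the cell line HEK293, which was established from embryonic kidney, which was transfected by lipid and harvested at 48 hours. In 4 libraries the cells had received 50 nM of a scrambled control mimic. In the other 4 they had received 50 nM of a mimic of the 3' tRNA-derived RNA (tDR) of tRNA-Asp-GTC, a fragment cut from the 3' side of that tRNA. Both groups are the same line and went through the same kind of transfection. Whether each library had its own culture dish is not stated in the labels, so the p-values below reflect library-to-library spread that could be technical.

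Clustered protocadherins are adhesion molecules of the cadherin superfamily, best known from neurons, where each cell uses its own small combination of them and the proteins bind only matching proteins on the next cell. In the alpha and gamma arrays each gene has its own promoter and its own large variable exon, which codes for the extracellular cadherin repeats, the membrane span and part of the tail. That exon is spliced to a few constant exons at the end of the array, so all alpha proteins share 1 tail and all gamma proteins another. Beta genes have no constant exons. Promoter choice is known to depend on DNA methylation and on loops held by CTCF and cohesin between promoters and distant enhancers. HEK293 cells are used to study this choice.

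The design of the arrays can be read in the transcripts themselves. Each line gives 60 bases of a GENCODE 29 coding sequence (GRCh38, plus strand of chromosome 5), shown because the shared end bears on what a count per gene can hold. In the alpha and gamma lines the last 30 bases of the variable exon are in lower case and the first 30 of the first constant exon are in capitals. In the beta lines only the stop codon is in capitals.
PCDHA1: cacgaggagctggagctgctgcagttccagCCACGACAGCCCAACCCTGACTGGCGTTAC
PCDHA2: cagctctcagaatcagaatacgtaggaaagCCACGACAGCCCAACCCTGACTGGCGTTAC
PCDHAC2: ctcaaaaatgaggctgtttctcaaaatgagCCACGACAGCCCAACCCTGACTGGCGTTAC
PCDHGA1: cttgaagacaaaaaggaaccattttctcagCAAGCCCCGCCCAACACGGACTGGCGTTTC
PCDHGB4: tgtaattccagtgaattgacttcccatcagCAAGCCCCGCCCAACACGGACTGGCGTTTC
PCDHGC3: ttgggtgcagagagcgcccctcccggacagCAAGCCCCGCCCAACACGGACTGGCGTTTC
PCDHB2: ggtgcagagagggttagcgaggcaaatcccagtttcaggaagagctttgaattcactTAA
PCDHB15: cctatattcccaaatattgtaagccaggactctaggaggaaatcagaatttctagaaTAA

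The 15 coding alpha genes had 15 different sequences before the junction and 1 after it, and the 22 gamma genes had 22 before and 1 after. The alpha constant exons held 59, 89 and 308 coding bases, the first at 140978949 to 140979007. The gamma constant exons held 59, 89 and 224 coding bases, the first at 141494807 to 141494865. Of the 16 beta genes, 12 had a single coding exon in every annotated coding transcript.

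Almost no read was assigned to these genes in any library. Of the 54 genes, 50 were listed at 0 counts in all 8 libraries, and the other 4 held 82 counts together, 1.27 CPM (counts scaled to library size, the usual unit of count tables) over all libraries. All 16 alpha genes were at 0. Among the beta genes PCDHB2 held 12 counts over the 8 libraries (exact Poisson 95% interval 6.2 to 21.0, which covers counting error only) and PCDHB15 held 17 (9.90 to 27.2), while the other 14 were at 0. Among the gamma genes PCDHGA1 held 51 (38.0 to 67.1) and PCDHGC3, a C-type gene at the far end of the array, held 2 (0.242 to 7.23), while the other 20 were at 0. Total counts ran from 5848305 to 10557740 per library, and the locus neighbour TAF7, a subunit gene of the general transcription factor TFIID that lies between the beta and gamma arrays, held 6311.

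The rows at 0 were nearly all rows whose whole annotated span also belongs to another row. Spans were taken from GENCODE 29, and a base was called free where it lay in the span, from first to last base with introns included, of no other gene on either strand. Of the 54 genes 50 had no free base, and 49 of these were at 0, the exception being PCDHGC3 with its 2 counts. The 4 genes with a free base were PCDHA1, PCDHB2, PCDHB15 and PCDHGA1, and 3 of them held counts. In the alpha array, chr5:140786136-141012347, all spans but that of the pseudogene PCDHA14 run to the constant exons, so the genes are nested, and only PCDHA1 has bases to itself at its start. These are 2324 bases, 1.03% of its span of 226212. In the gamma array, chr5:141330571-141512981, PCDHGA1 holds the same place with 8191 free bases, 4.49% of its span of 182411.

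The beta genes, in chr5:141051135-141249365, are short, with spans of 2740 to 8210 bases, and were shared in another way. Long noncoding rows on the opposite strand run across the array. PCDHB1-AS1, at 141046260 to 141096402, covered all of PCDHB1 and 44.2% of PCDHB2. The row ENSG00000272154, at 141100242 to 141174391, covered all of PCDHB3, PCDHB4, PCDHB5 and PCDHB6. The row ENSG00000280029, at 141136683 to 141245380, covered all of PCDHB6 to PCDHB14 and PCDHB16, but 0.797% of PCDHB15. Rows on the same strand covered parts of some genes as well. The protein-coding row ENSG00000279983 covered 90.89% of PCDHB14 and 12.77% of PCDHB15. The row ENSG00000279472 covered 97.85% of PCDHB8, and ENSG00000279068 covered 79.8% of PCDHB16. PCDHB2 kept 2301 free bases, 55.8% of its span, from 141096403 to 141098703, and PCDHB15 kept 3504, 87.2%, from 141245862 to 141249365. On their own strand all 16 beta genes had a free base, and 11 had their whole span free, of which 10 were at 0. When exons alone were compared, 53 of the 54 genes had exon bases outside the exons of every other gene, from 2011 to 10574 bases.

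**Figure D1:**
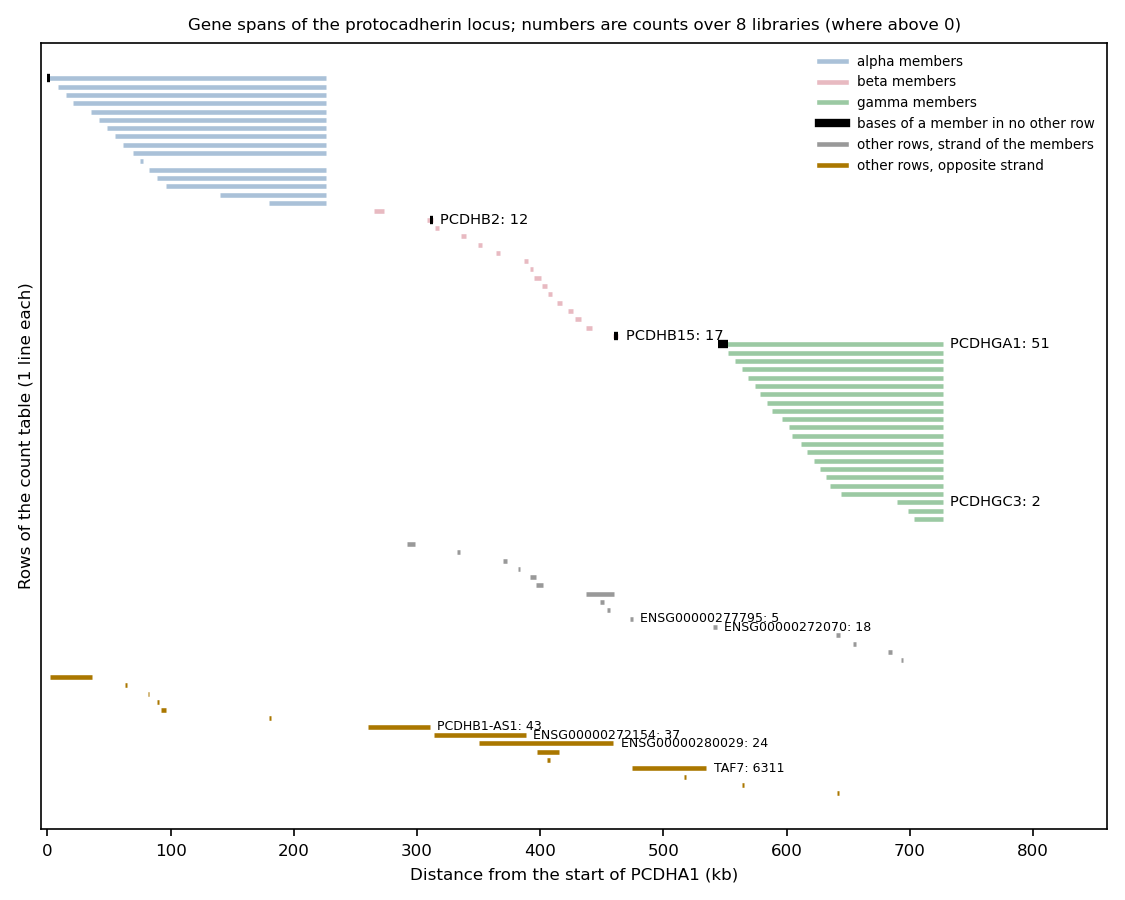
Gene spans of the locus, 1 line per row of the count table, against distance from the start of PCDHA1 in kilobases; pale lines are alpha, beta and gamma genes, black marks their free bases, grey and brown lines are other rows on the same and the opposite strand, and numbers are counts over 8 libraries where above 0. Alpha and gamma spans are nested, and PCDHB2 (12), PCDHB15 (17) and PCDHGA1 (51) have both counts and free bases.

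The same relation held over the rest of the table. Of 1737 other protein-coding genes with no free base, 1642 (94.5%) were at 0 in all 8 libraries, against 853 of 18032 (4.73%) with some free base. Among genes with 1 to 10000 free bases, the range of the 4 clustered protocadherins that have any, 690 of 5468 (12.6%) were at 0. Where genes of the opposite strand alone covered the whole span, as for most beta genes, 842 of 858 (98.1%) were at 0. Where the span was wholly shared but no exon met another gene's exon, 649 of 656 (98.9%) were at 0. Genes that every cell uses were among them. The ribosomal protein genes RPL15, RPL32, RPL35A and RPS4X, which have no free base, were listed at 0, as was RPS10, which has 54 free bases. The relation had exceptions, such as CDC42, a small GTPase gene with no free base in GENCODE 29 that held 583 counts, named here after its value was seen. A clustered protocadherin listed at 0 in this table is therefore given here as listed at 0, with no level and no fold change. GENCODE 29 is older than the table's annotation, and the counting settings for feature, strand and overlap were not given in the sources used here.

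**Figure D2:**
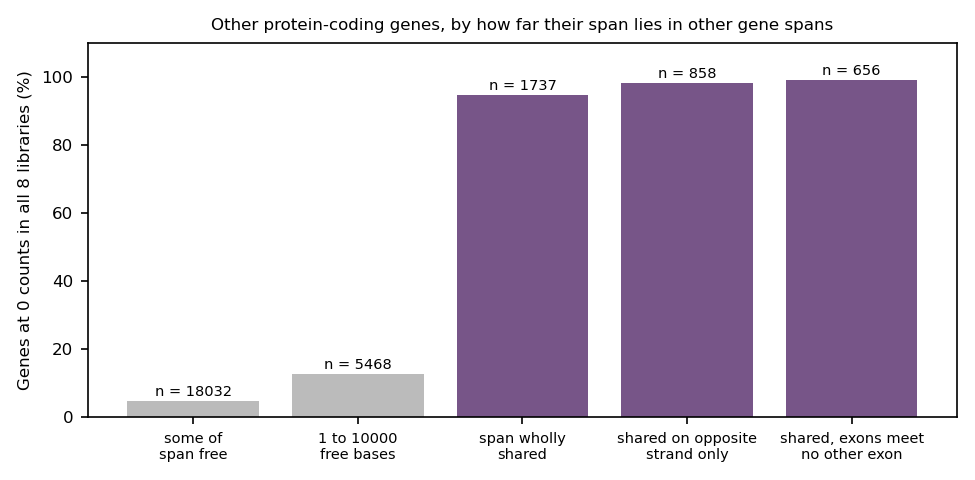
Percent of protein-coding genes outside the 3 arrays with 0 counts in all 8 libraries (bars, from 0), by how the gene's span is shared with other genes; n is the number of genes, and the classes overlap. Genes with no free base were at 0 in 94.5% of cases and genes with some free base in 4.73%.

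The 3 genes with both a free stretch and counts were set beside genes best known from another tissue. The 290 olfactory receptor genes, which code for odorant receptors of the nose, held 3162 counts over 1827 free kilobases, or 1.73 counts per free kilobase. PCDHGA1 held 6.23 counts per free kilobase, PCDHB2 5.21 and PCDHB15 4.85, while TAF7 held 109. Free bases include introns, and the share of exon bases among them was not matched between these genes. All bases of PCDHB2 and PCDHB15 are annotated as exon, so the densities may not be alike in kind. At the olfactory receptor density PCDHGA1 would hold 14.2 counts over all libraries, where 51 were observed. PCDHB15 would hold 6.06, with 17 observed, and PCDHB2 3.98, with 12 observed. PCDHA1 would hold 4.02 and was listed at 0, and a count of 0 allows up to 3 counts, or 0.0464 CPM over all libraries, so a level like that of the olfactory receptor genes was barely detectable in PCDHA1. Scaled to library totals, the olfactory receptor genes summed to 38.2, 44.4, 34.4 and 33.7 CPM in the scramble libraries and to 58.0, 62.7, 65.0 and 62.0 in the tDR libraries. This background was thus higher in all 4 tDR libraries, without overlap, by 1.64-fold on the means, 37.7 ± 4.87 and 61.9 ± 2.94 CPM (SD, n = 4). The array sums below are therefore also given after each library's background per free base was subtracted.

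PCDHGA1 is the first gene of the gamma array, of the A subfamily. Its counts were 5, 4, 4 and 11 in the 4 scramble libraries and 4, 5, 10 and 8 in the 4 tDR libraries. The highest raw count was in a scramble library, while the highest depth-scaled value, 1.3 CPM, was in a tDR library, and the groups overlapped on both scales. In CPM scaled with TMM factors, which adjust library sizes for composition, it stood at 0.688 ± 0.268 with scramble and 0.874 ± 0.291 with tDR (SD, n = 4). At the olfactory receptor density of each library it would have held 1.01 to 1.68 counts in the scramble libraries and 1.52 to 2.57 in the tDR libraries. All 8 observed counts were above that value, which takes no account of the share of exon bases.

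PCDHB2 is an early gene of the beta array. It held 0, 2, 1 and 7 counts with scramble and 0, 0, 1 and 1 with tDR. A single scramble library carried 7 of its 12 counts, and both groups had a library at 0. The means were 0.273 ± 0.295 and 0.0586 ± 0.0684 CPM (SD, n = 4).

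PCDHB15 lies near the end of the beta array. Its counts were 0, 3, 3 and 4 with scramble and 3, 3, 0 and 1 with tDR. Each group had 1 library at 0 and the groups overlapped, with means of 0.309 ± 0.211 and 0.256 ± 0.242 CPM (SD, n = 4). PCDHGC3, which in the gamma array stands next to the constant exons with the other C-type genes, had its 2 counts in a single scramble library and 0 in the other 7.

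**Figure D3:**
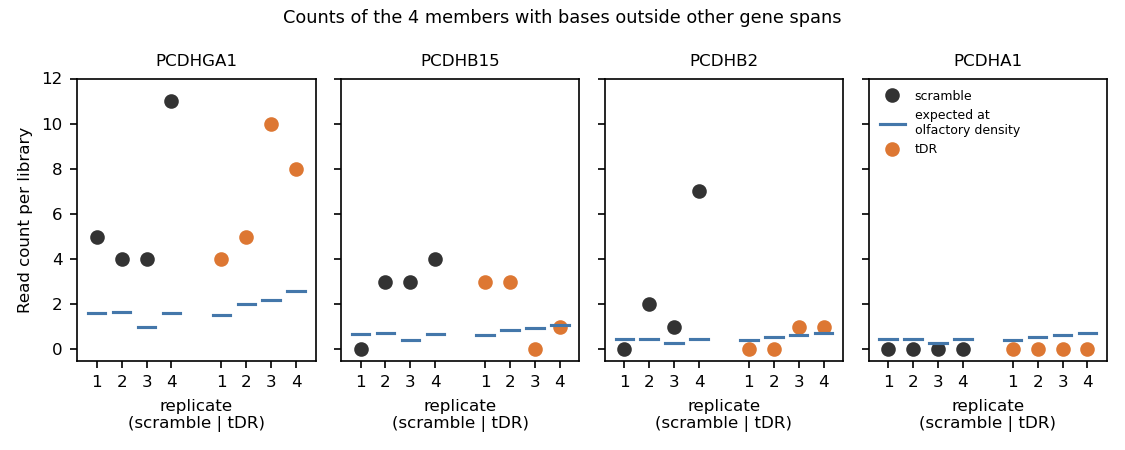
Read counts (points) of the 4 genes with a free base, PCDHGA1, PCDHB15, PCDHB2 and PCDHA1, in each scramble (black) and tDR (orange) library, with the count at the olfactory receptor density as a blue line. PCDHGA1 runs from 4 to 11, above its line in all 8 libraries, PCDHA1 is at 0 throughout, and the groups overlap in every panel.

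Summed over an array, the level was low in both groups. The beta genes summed to 0, 0.612, 0.636 and 1.08 CPM with scramble and to 0.508, 0.411, 0.130 and 0.210 with tDR. The gamma genes summed to 0.547, 0.489, 0.954 and 1.08 with scramble and to 0.677, 0.685, 1.3 and 0.839 with tDR. Both sums overlapped between groups, and the alpha sum was 0 in all libraries. The difference of the means, tDR minus scramble, was -0.267 CPM for the beta genes and 0.107 for the gamma genes, and after background subtraction -0.297 and 0.00954. The gamma difference was thus near 0 with the background removed. That sum includes the 2 counts of PCDHGC3 in a single scramble library, from which nothing was subtracted, since it has no free base. For PCDHGA1 alone the log2 change, tDR over scramble and without a filter on low counts, was 0.295 before subtraction and 0.301 after it. The spread between libraries (SD 0.298) was larger than either gamma value of the sum.

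No clustered protocadherin passed the test for a difference between the tDR mimic and the scramble. With edgeR's filter on low counts, 17184 genes were tested, of which 24.3% were called at an adjusted p under 0.05, and 0 of the 54 genes were among those tested. Without the filter 34642 genes were tested and 11.9% were called, 5.26% higher with tDR and 6.62% lower. Of the 54 genes 4 were then tested, 0 were called and 0 had an unadjusted p under 0.05. In that fit, by edgeR's quasi-likelihood test with Benjamini-Hochberg adjustment, PCDHGA1 had a log2 fold change, tDR over scramble, of 0.30 ± 0.61 (SE) with an adjusted p of 0.806. For PCDHB2 it was -1.93 ± 1.33 with an adjusted p of 0.400, and for PCDHB15 -0.33 ± 1.05 with 0.877. DESeq2 called 1432 genes higher and 2133 lower of 34642 with any count, and 0 of the 4 genes were among them. Only PCDHGA1 had an adjusted p there, so the other genes could not have been called. By DESeq2 0 of the 4 genes had an unadjusted p under 0.05. The standard errors show that differences of these sizes were not detectable at these counts, and they do not show that the groups were alike.

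The members differ in how much of their own transcript sequence tells them apart. Of all 50-base windows of a gene's annotated coding transcripts, the share also found in another of the genes had a median of 49.3% in the 15 coding alpha genes, from 19.5% to 65.2%. In the 22 gamma genes it was 44.1%, from 30.9% to 71.1%, the highest in PCDHGB4. In the 16 beta genes it was 13.6%, from 0% in PCDHB1 to 45.7% in PCDHB8. The beta genes, with no shared constant exons, thus had the lowest median share. In the alpha and gamma arrays the shared windows include the constant exons, which are the same bases of the genome in each gene. The shares therefore do not measure how uniquely a read maps to the genome. Of these 16 genes 14 were listed at 0, and all 14 had no free base. Whether shared sequence bears on the rows at 0 was not tested.

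**Figure D4:**
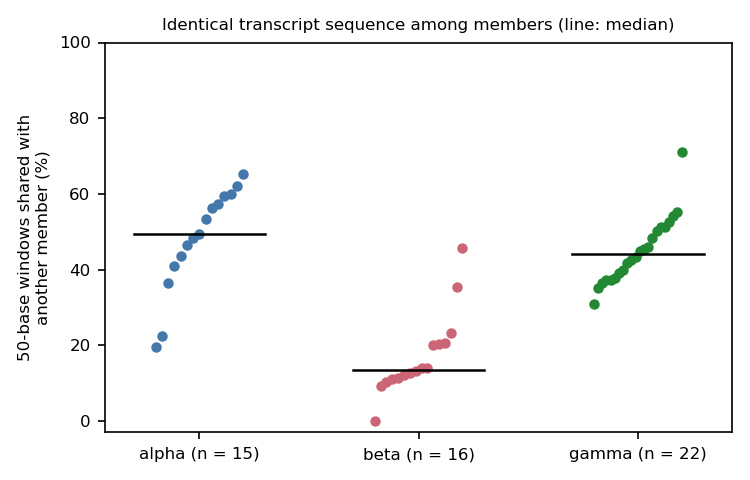
Percent of each gene's 50-base transcript windows that also occur in another clustered protocadherin, 1 point per gene, by array, with a line at the median. The alpha median is 49.3%, the beta median 13.6% and the gamma median 44.1%.

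The promoters of the arrays carry related letters, shown because a CGCT box is a known feature of these promoters. RefSeq (GRCh38.p14) gave the 250 bases before to 50 after the start for 47 of the 54 genes: 13 alpha, 14 beta and 20 gamma. GGTGGCGCT was found in 13 of 14 beta promoters, 0 of 13 alpha and 0 of 20 gamma promoters, against 0.501% of 35116 promoters of all genes. GATGTCGCT was found in 9 of 13 alpha promoters and in none of the other 34, against 0.105% of all. CGCCGCTGT was found in 9 of 20 gamma promoters and in none of the other 27, against 0.604%. Both strands were searched. All 3 runs hold the letters CGCT, which 70% of all promoters hold, and they were picked as the runs most shared among these promoters, so the shares only describe them. Each line gives the 9 letters in capitals with 15 bases on either side, plus strand.
PCDHB2 at chr5:141094540-141094578: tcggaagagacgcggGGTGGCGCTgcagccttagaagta
PCDHB15 at chr5:141245310-141245348: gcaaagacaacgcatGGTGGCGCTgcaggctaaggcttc
PCDHB5 at chr5:141135175-141135213: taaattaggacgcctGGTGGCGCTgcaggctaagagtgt
PCDHB8 at chr5:141177773-141177811: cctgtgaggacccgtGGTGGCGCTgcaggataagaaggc
PCDHA1 at chr5:140786082-140786120: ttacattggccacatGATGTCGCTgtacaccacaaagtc
PCDHA2 at chr5:140794777-140794815: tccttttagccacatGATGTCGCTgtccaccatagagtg
PCDHGA1 at chr5:141330401-141330439: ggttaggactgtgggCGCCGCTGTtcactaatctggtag
PCDHGB1 at chr5:141350023-141350061: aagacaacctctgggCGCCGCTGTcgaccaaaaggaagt

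PCDHB2 and PCDHB15, which held counts, and PCDHB5 and PCDHB8, listed at 0, carry the same 9 letters. In the gamma array the same holds for PCDHGA1, with counts, and PCDHGB1, at 0. PCDHB5, PCDHB8 and PCDHGB1 have no free base, so their listing at 0 gives no level to set beside their promoters. Whether the run bears on the counts was not tested. The first base of the run lay 84 to 2 bases before the start in the beta promoters, 86 to 43 before it in the alpha promoters and 98 to 43 before it in the gamma promoters.

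Genes around and related to the arrays, from lists chosen for this locus and pathway, could be measured. The calls depend on scaling: with TMM factors 2206 genes were called higher with tDR and 1962 lower (12.8% and 11.4% of those tested), and with library size alone 3295 and 907. With a trend on gene length 1805 were called higher and 2688 lower of 16661 tested. After background subtraction 1034 were called higher and 999 lower of 14863. The list counts below under each setting stand beside these shifts of the whole table. Of 13 tested genes for CTCF and cohesin, which hold the loops at these promoters, 9 fell and 1 rose, with a median log2 change of -0.20 against 0.02 over all genes. The cohesin subunit gene SMC3 stood at 404.8 ± 18.4 CPM with scramble and 326.9 ± 8.22 with tDR (SD, n = 4), a log2 change of -0.31 with an adjusted p of 1.0e-06 by edgeR. RAD21, another cohesin subunit gene, had a change of -0.25 with an adjusted p of 7.55e-05 by edgeR. CTCF stood at 160 ± 3.23 and 139 ± 7.39, a change of -0.21 with an adjusted p of 0.00283. The gene that rose, for the cohesin loader subunit MAU2, was not called with RLE factors, with DESeq2, without scramble replicate 1, 3 or 4, or without tDR replicate 2, 3 or 4. With library size alone 3 of the 13 fell and 1 rose, with a median of -0.12, and CTCF did not pass (-0.13, adjusted p 0.0743 by edgeR).

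Silencing factors act on the methylation and chromatin of the arrays. Their list also held TET1, TET2, TET3 and KMT2A, which are not silencing factors. Of 20 tested, 2 rose, DNMT3A (0.25), a DNA methyltransferase gene, and ZNF274 (0.41), a zinc finger repressor gene, and 5 fell, among them the corepressor gene TRIM28 (-0.23). With library size alone 3 rose and 1 fell, and after subtraction of a background per free base 3 rose and 0 fell. The number that fell was 8 with a trend on gene length, 3 without tDR replicate 2 and 2 without tDR replicate 4. SMCHD1, a chromatin protein known to act on these arrays, had a change of 0.07 with an adjusted p of 0.689 by edgeR.

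Of 14 tested neighbours on chromosome 5, FCHSD1 (0.54) and PCDH1 (0.64), a protocadherin gene outside the arrays, rose. IK (-0.16), which codes for a splicing factor, fell, and it was not called with library size alone, after background subtraction, with a trend on gene length, or without scramble replicate 2 or tDR replicate 4. PCDH1 was not called without tDR replicate 4 or with DESeq2. Among the neighbours TMCO6, DND1 and SLC25A2 have no free base, and all 3 were at 0, as were the 4 listed pseudogenes of the cluster.

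Protocadherins outside the arrays and their relatives formed another list, without PCDH1, which was counted with the neighbours. Of 19 tested, 3 rose, PCDH15 (0.60), PCDH11X (0.57) and DCHS2 (0.42), and 1 fell, PCDH19 (-0.28). The median was 0.07, against 0.02 over all genes tested, of which 24.3% were called in either direction. All 3 that rose were not called with a trend on gene length, when 0 rose and 6 fell, and 0 of 17 testable genes were called either way after background subtraction. With library size alone 5 rose and 0 fell. PCDH15 held 1600 counts over 1300594 free bases and PCDH11X 1143 over 840254. Both are fewer than the olfactory receptor density of 1.73 counts per free kilobase would give, while DCHS2 held more. That background was 1.64-fold higher with tDR, and its part in these rises was not tested. PCDH19 was not called without scramble replicate 3 or 4, without tDR replicate 1, 2 or 3, or with DESeq2. DCHS2 was not called without scramble replicate 1, 2 or 4, without tDR replicate 2, or with DESeq2.

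Of 21 tested classical cadherins and catenins, which join cells in tissues, 11 rose, among them CDH4 (0.85), CTNNA2 (0.64) and JUP (0.51), and 2 fell, with a median of 0.41. CTNNA2 held 2007 counts over 1387400 free bases, fewer than the olfactory receptor density of 1.73 counts per free kilobase would give. CDH4 held 1497 counts over 665211 free bases and JUP 3435 over 32328. Each held more than at that density, but CDH4 was far closer to it than JUP. That background was 1.64-fold higher with tDR, and its part in these rises was not tested. Without scramble replicate 4, 6 rose, and with DESeq2, 7. After background subtraction 14 could be tested, of which 4 rose and 1 fell, and with a trend on gene length 7 rose, CTNNA2 not among them, and 4 fell. Of 22 tested signalling partners of protocadherins 1 rose, the kinase gene PRKCA (0.18), and 6 fell, among them BRK1 (-0.33) and RAC1 (-0.21), which act on the actin skeleton, and MARCKS (-0.25). With library size alone 2 rose and 2 fell, and after background subtraction 1 rose and 2 fell, RAC1 not among them either time. With a trend on gene length 0 rose and 11 fell, with PRKCA at -0.08, and without tDR replicate 3, 3 fell.

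The markers of the line all passed the filter. Over all libraries KRT8 held 610 counts, KRT18 2010, VIM 9968, PAX2 1183, NEFM 12947 and NEFL 6230. They moved in both directions: KRT8 (0.63) and PAX2 (0.44) rose with tDR on the log2 scale, NEFM (-0.41) and NEFL (-0.46) fell, and KRT18 (0.13) and VIM (0.03) did not pass. Of the markers of other cell types, ALB held 14 counts over all libraries and was not tested. PTPRC, with 196 counts, CDH5, with 91, and COL1A1, with 1350, passed the filter too. Passing it therefore does not identify the line, and COL1A1 held more counts than KRT8 or PAX2. CDH5 (1.28) and COL1A1 (0.66) rose, which makes 4 higher and 2 lower of 9 tested markers. CDH5 was not called with DESeq2, without scramble replicate 1 or 4, or without tDR replicate 3 or 4, and KRT8 was not called without tDR replicate 2. The part of these changes in the results above was not tested.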

How the data were processed

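RNA-seq libraries of HEK293 cells, 4 per group, were analysed from 1 table of raw read counts per gene as deposited. The authors used featureCounts 2.0.2 for the counts, with STAR 2.7.8a, cutadapt 2.10 and the build GRCh38.p13, per the submitters' processing notes. Its settings for strand and for overlapping features were not given in the sources used here. Total counts per library were 5848305 to 10557740.

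Differences were tested with edgeR 4.0.16 in R 4.3.3 (quasi-likelihood F test, TMM factors, filterByExpr, group as the only term, Benjamini-Hochberg over all genes tested, threshold 0.05), after the code was tested on simulated data. Alternatives were no filter, DESeq2 1.42.0, library size alone, RLE factors, a replicate block, background subtraction, a gene-length trend, and leaving out each library. Because no member passed the filter, each alternative was also run without it, chosen after seeing the data. The comparisons by own strand and by exons were added then too. Spans come from GENCODE 29, to which 56967 of 60606 genes (94%) matched, and all columns were mapped to samples. The members and lists were chosen with earlier results of these data known. All members could be named, with full values for those with the highest mean in each array. Of each list, up to 3 called genes with the smallest p could be named, plus CTCF, RAD21 and SMCHD1. Other genes were named beyond this rule. Among them were MAU2, PRKCA and PCDH19, each the only gene of its list called in its direction.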

Additional observations from a re-analysis of the deposited data

Results flagged for a closer look

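PCDHGC3 stood at 0.318 CPM in scramble replicate 3 and at 0 in the other 3 scramble libraries. That library was far from the others of its group, with a gap equal to the whole range. The value rests on 2 counts. There were 11 groups of values examined in this way. A group with 1 value above 0 and the rest at 0 is always marked, whatever that value is. The chance rate of about 1 in 20 therefore does not apply to it.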

How the results depend on the processing

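Under all 15 alternatives 0 members were called in either direction. The number of members tested was 0 with the filter, 4 with no filter and 1 with DESeq2, counting those with an adjusted p. PCDHB15 changed sign, from -0.33 to 0.069, without tDR replicate 3. Leaving out each library gave log2 changes of 0.05 to 0.62 for PCDHGA1, -2.40 to -0.91 for PCDHB2 and -0.84 to 0.069 for PCDHB15. The difference of the summed CPM, tDR minus scramble, then ran from -0.465 to -0.103 for the beta genes and from -0.0371 to 0.206 for the gamma genes. After background subtraction it was -0.297 for the beta genes, from -0.267, and 0.00954 for the gamma genes, from 0.107. With background subtraction PCDHB2 had a log2 change of -4.21, with an unadjusted p of 0.0218 and an adjusted p of 0.182 by edgeR. With a replicate block and no filter, the changes were 0.28 for PCDHGA1, -1.93 for PCDHB2 and -0.39 for PCDHB15, with 0 called. Same-numbered libraries did not deviate together (correlations of -0.01, 0.07, -0.03 and 0.02), so the numbers were not used as pairs. Medians by array could not be given, since no member passed the filter, and no GC check was run. The counts, 82 over all members, limit every comparison.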

Other observations

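The noncoding rows that cross the beta array also held few counts. PCDHB1-AS1 held 9, 4, 1 and 2 counts with scramble and 4, 7, 9 and 7 with tDR, 43 in all, where the olfactory receptor density would give 58.3 over its free bases. The row ENSG00000272154 held 4, 0, 1 and 4 with scramble and 4, 11, 6 and 7 with tDR, 37 in all against 44.5. The row ENSG00000280029 held 3, 2, 0 and 2 with scramble and 4, 9, 4 and 0 with tDR, 24 in all against 20.1. Scaled to library totals, ENSG00000272154 stood at 0.427, 0, 0.153 and 0.379 CPM with scramble and 0.684, 1.54, 0.798 and 0.758 with tDR. Its groups did not overlap, while those of the other rows did. The share of all genes without such overlap is not given here, so this does not set ENSG00000272154 apart. By edgeR without a filter it had a log2 change of 1.74 ± 0.75 (SE), with an unadjusted p of 0.0212 and an adjusted p of 0.123, and after background subtraction an adjusted p of 0.267. Of all genes in the fit without a filter 11.9% were called, and 0 of these 3 rows were. The olfactory receptor genes were higher in all 4 tDR libraries as well, by 1.64-fold. Of the 30 rows of the locus that are no member, 6 held any count.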
